A study of Mus musculus with 28 samples.

Results

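Expression was followed in mouse cells that lacked topoisomerase IIβ (Top2β) at 2 stages of neuronal culture, TN day 6 and TN day 2 in the labels. All genes of the 3 knockout arrays of TN day 6 and the 2 knockout arrays of TN day 2 were compared, which is 5 of the 28 arrays of the series. The 3 wild-type arrays of TN day 6 and the 2 of TN day 2 were used to ask whether a change differed between genotypes. All 10 were arrays of total RNA from cells of strain 129SvEv, differentiated from embryonic stem (ES) cells through neuronal progenitor (NP) cells. The cell type given for the TN stages is neurons of that day, and TN is not spelled out. The labels say neither whether the knockout came from 1 clone nor whether replicates were separate cultures, so the p-values measure a spread between arrays that may be technical. A note on drug or vehicle treatment is attached to all samples, but no TN day 6 or TN day 2 array carries a drug group.

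Type II topoisomerases cut both strands of a DNA duplex, pass another duplex through the break and reseal it, which removes tangles and supercoils. Top2α serves mainly dividing cells, in which it separates sister chromosomes, and Top2β is the form that neurons keep after their last division. As neural progenitors leave the cell cycle they shut down replication and mitosis genes, lose the progenitor factors held up by Notch signalling, and then switch on genes for axons, ion channels and synapses.

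The deposited values were read as log2 from their range, since the base of the logarithm is not given in the sources used here, and on that reading a difference of 1 is a 2-fold change. Changes are TN day 6 minus TN day 2 on that scale, given ± the standard error (SE) of a limma model, with p-values that were Benjamini-Hochberg (BH) adjusted over all 19938 genes. A gene was called at an adjusted p under 0.05. The array medians were between 6.22 and 6.29 in knockout cells of TN day 6 and were 6.35 and 6.32 in those of TN day 2. Arrays of one knockout group correlated at 0.9936 or above.

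Some arrays stood apart from others of their group. At TN day 6, knockout replicate 3 had the lowest mean level of the 31 mitosis genes, with 7.11, 7.21 and 6.70 in replicates 1, 2 and 3. It was also lowest for the 28 mesenchymal and matrix genes (7.61, 7.69 and 7.21) and for the 16 endoderm and epithelium genes (6.93, 7.03 and 6.34). At TN day 2, the mesenchymal and matrix genes had mean levels of 8.45 and 8.86 in knockout replicates 1 and 2 and of 7.19 and 8.27 in wild-type replicates 1 and 2. Some counts below depended on one of these arrays, and most such counts are also given without it. In such cultures fewer cells of a type and less RNA per cell cannot be told apart.

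For the deleted gene no difference between the days was called. Top2b had signals of 9.04, 8.68 and 9.0 in knockout cells of TN day 6 and 8.99 and 8.94 in those of TN day 2, a difference of -0.06 ± 0.22 (adjusted p = 0.87). Wild-type cells had 11.32, 11.19 and 11.15 at TN day 6 and 11.4 and 11.35 at TN day 2, so the knockout arrays of both days lay below every wild-type array. The files do not say where this probe set sits relative to the deletion. Top2a, the paralog of dividing cells, had 8.78, 8.79 and 8.19 in knockout cells at TN day 6 and 10.68 and 10.54 at TN day 2, and fell by 2.02 ± 0.2 (adjusted p = 5.7e-08). Its change in wild-type cells was -3.34 ± 0.2, and the difference between the genotypes was 1.32 ± 0.28 (adjusted p = 0.0064); without wild-type TN day 2 replicate 1 that adjusted p was 0.0562. Of 8 topoisomerase and tyrosyl-DNA phosphodiesterase genes, 1 was higher and 4 were lower at TN day 6, or 2 lower without knockout TN day 2 replicate 2. The higher one was Top1mt, the mitochondrial enzyme, which rose by 0.65 ± 0.12 (adjusted p = 0.0002). Top1, the main type I enzyme, was at 10.64, 10.46 and 10.5 at TN day 6 and 10.4 and 10.38 at TN day 2 (0.14 ± 0.09, adjusted p = 0.21).

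Between the TN days 6940 genes changed in knockout cells, which is 34.8% of those tested. At TN day 6, 4397 genes were higher (22.1%) and 2543 were lower (12.8%). Changes of at least 2-fold were more often falls than rises, with 607 genes higher (3.04%) and 832 lower (4.17%). All 3 arrays of TN day 6 lay above both of TN day 2 in 7925 genes (39.7%) and below both in 4014 (20.1%). The median change of all genes was 0.11. Without knockout TN day 2 replicate 2 the counts were 3141 higher and 1695 lower, and without knockout TN day 6 replicate 3 they were 3817 and 2188. In wild-type cells 3324 genes were higher (16.7%) and 2366 lower (11.9%). Both genotypes called 2307 genes higher and 1537 genes lower. Knockout counts by gene list below are to be read against the 22.1% higher and 12.8% lower of all genes. Counts of differences between genotypes are to be read against 2.71% higher and 2.09% lower.

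**Figure D1:**
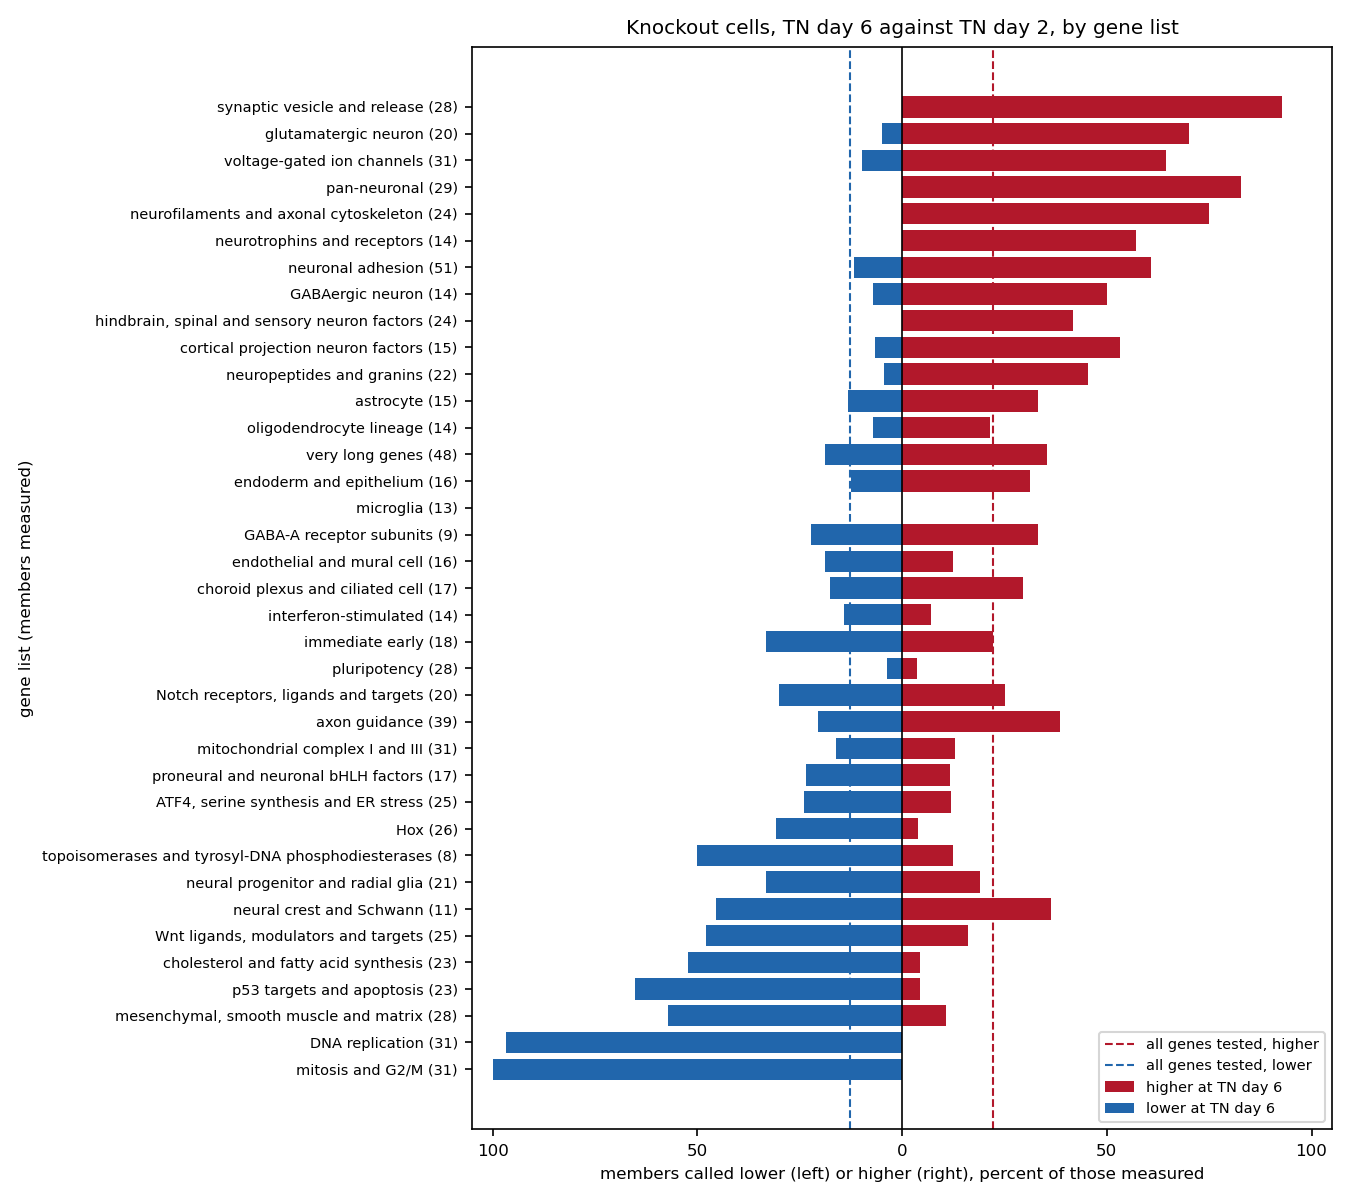
Each bar gives the percent of a gene list's measured members (numbers in brackets) called higher, to the right, or lower, to the left, in knockout cells at TN day 6 against TN day 2; dashed lines mark the same shares over all 19938 genes, 22.1% and 12.8%. Lists are ordered by their median change: synaptic vesicle genes lie at the top with 92.9% higher, and mitosis genes at the bottom with 100% lower.

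Rises and falls were ranked among called genes whose arrays did not overlap between the days. Symbols of the form Gm or LOC plus digits, or ending in Rik, were left out. The 3 largest rises so ranked were those of Usp17ld, Tmem130 and AY036118, and the 15 largest also held genes of synapses, ion channels and secretion. Slc17a6, the vesicular glutamate transporter that loads synaptic vesicles, had 8.56, 8.77 and 8.11 at TN day 6 and 6.57 and 5.26 at TN day 2, and rose 5.94-fold (2.57 ± 0.25, adjusted p = 7.5e-08). All arrays of TN day 6 lay above those of TN day 2, and the 2 earlier arrays were far from each other. Kcnk9, a background potassium channel, had 8.39, 8.45 and 8.4 at TN day 6 and 5.95 and 5.52 at TN day 2 (2.68 ± 0.24, adjusted p = 2.7e-08). Tmem130, a membrane protein, had 10.44, 10.48 and 10.61 at TN day 6 and 7.82 and 7.47 at TN day 2, a 7.26-fold rise (2.86 ± 0.14, adjusted p = 2.7e-11). The 3 later arrays of Tmem130 lay close together, well above both earlier ones. Pcp4, a calmodulin-binding peptide, rose by 2.33 ± 0.18 (adjusted p = 4.2e-09), Adap1, an Arf GTPase-activating protein, by 2.25 ± 0.27 (adjusted p = 8.8e-07), and Shtn1, which takes part in axon outgrowth, by 2.11 ± 0.11 (adjusted p = 2.7e-11). Nlgn3, a postsynaptic adhesion protein, rose by 2.21 ± 0.28 (adjusted p = 1.8e-06). These 7 genes rose in wild-type cells too, and none of their differences between genotypes was called; their wild-type changes ran from 1.53 for Pcp4 to 3.20 for Slc17a6.

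Another 6 of the 15 rose by an amount that differed from wild-type cells or showed no call there. Cbln2, a secreted organizer of synapses, had 9.0, 8.83 and 8.87 in knockout cells of TN day 6 and 6.45 and 6.14 in those of TN day 2 (2.6 ± 0.16, adjusted p = 2.7e-10). In wild-type cells it had 6.87, 6.94 and 6.73 at TN day 6 and 6.57 and 6.78 at TN day 2, so the groups of that genotype overlapped, and the difference between genotypes was 2.43 ± 0.23 (adjusted p = 1.5e-06). Slc6a11, a transporter that takes up GABA, rose by 2.27 ± 0.13 (adjusted p = 1.3e-10) in knockout cells against 0.7 ± 0.13 in wild type, and Kcnip1, a potassium channel subunit, by 2.08 ± 0.13 (adjusted p = 3e-10) against 1.06 ± 0.13. Scg2, a granin of dense-core vesicles, rose by 2.21 ± 0.16 (adjusted p = 1.9e-09) against 0.73 ± 0.16. Srgn, a proteoglycan of secretory granules, had 9.84, 9.72 and 7.6 at TN day 6 and 6.94 and 5.98 at TN day 2. Replicate 3 of TN day 6 lay far below replicates 1 and 2, and the change of Srgn was 2.59 ± 0.43 (adjusted p = 5.4e-05). Its wild-type change was 0.64 ± 0.43 (adjusted p = 0.29), and the difference between genotypes was not called (1.95 ± 0.61, adjusted p = 0.069). Tac1, the precursor of substance P, rose by 2.3 ± 0.2 (adjusted p = 1.8e-08) in knockout cells. Usp17ld rose by 3.24 ± 0.34 (adjusted p = 1.8e-07) and AY036118 by 2.83 ± 0.19 (adjusted p = 7.4e-10). Usp17ld belongs to a family of near-identical copies, so the source of its signal is uncertain.

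Genes that mark neurons in general rose together. Of 29 measured, 24 were higher and 0 lower at TN day 6, with a median of 0.69 against 0.11 for all genes. Their mean level was 10.54, 10.51 and 10.55 at TN day 6 and 9.91 and 9.66 at TN day 2. Stmn2, a regulator of axonal microtubules, had 12.58, 12.51 and 12.57 at TN day 6 and 11.88 and 11.61 at TN day 2 (0.81 ± 0.16, adjusted p = 0.00032), and Tubb3, a neuronal tubulin, rose by 0.65 ± 0.12 (adjusted p = 0.00015). Rbfox3, a splicing regulator of mature neurons, rose by 0.98 ± 0.1 (adjusted p = 1.7e-07). Mapt, which encodes the microtubule protein tau, had 10.31, 10.36 and 10.35 at TN day 6 and 9.1 and 8.68 at TN day 2 (1.45 ± 0.19, adjusted p = 3e-06). Gap43, a growth-cone protein, was at 12.45, 12.34 and 12.49 at TN day 6 and 11.9 and 11.53 at TN day 2, so markers of neurons were high on both days, as the label says. Ncam1, a neural adhesion molecule, was at 11.44, 11.36 and 11.36 at TN day 6 and already at 11.13 and 11.07 at TN day 2, and was not called (0.29 ± 0.17, adjusted p = 0.22), and Elavl2, an RNA-binding protein of neurons, was not called either (0.12 ± 0.14, adjusted p = 0.58). The days did not overlap for Ncam1. Its SE pools all groups, and its SD was 0.8 in knockout ES cells, against 0.05 and 0.04 in knockout cells of TN day 6 and TN day 2.

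Of 24 neurofilament and axonal cytoskeleton genes, 18 were higher and 0 lower, with a median of 0.63. Kif1a, a motor that carries synaptic vesicle precursors, rose by 1.03 ± 0.1 (adjusted p = 7e-08). Prph, an intermediate filament of peripheral neurons, had 7.24, 7.46 and 7.22 in knockout cells of TN day 6 and 5.98 and 6.07 in those of TN day 2 (1.28 ± 0.11, adjusted p = 1.9e-08). Wild-type Prph was at 6.03, 5.98 and 5.97 at TN day 6 and 6.05 and 5.91 at TN day 2, and the difference was 1.27 ± 0.16 (adjusted p = 5.9e-05). Nefl, the light neurofilament chain, rose by 0.55 ± 0.14 (adjusted p = 0.0036) in knockout cells and fell by 0.47 ± 0.14 in wild type, a difference of 1.02 ± 0.2 (adjusted p = 0.0035). Nefm, the medium chain, was not called in knockout cells (-0.2 ± 0.16, adjusted p = 0.38) and fell by 1.36 ± 0.16 (adjusted p = 1.2e-06) in wild type. Dpysl2, a semaphorin response protein, was among the brightest members at 12.54, 12.48 and 12.48 at TN day 6 and 12.26 and 12.06 at TN day 2 and was not called (0.34 ± 0.24, adjusted p = 0.28). Its arrays did not overlap between the days. The pooled SE also holds the spread of knockout ES cells, with an SD of 1.11, against 0.04 and 0.14 in knockout cells of TN day 6 and TN day 2.

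Most genes of transmitter release rose. Of 28 synaptic vesicle and release genes 26 were higher and 0 lower, with a median of 1.03, and between 24 and 27 were higher under every other setting. Sv2a, a membrane protein of all synaptic vesicles, had 11.09, 11.06 and 11.19 at TN day 6 and 9.45 and 9.3 at TN day 2, a 3.33-fold rise (1.74 ± 0.09, adjusted p = 2.7e-11). Syngr3, another vesicle protein, rose by 1.71 ± 0.14 (adjusted p = 9.6e-09) and Amph, which works in vesicle recycling, by 1.61 ± 0.13 (adjusted p = 6.5e-09). Syp, the vesicle marker synaptophysin, rose by 1.35 ± 0.14 (adjusted p = 1.7e-07), and Syt1, the calcium sensor of release, by 0.69 ± 0.14. Snap25, a part of the fusion complex, rose by 0.5 ± 0.1. Sv2b rose by 1.76 ± 0.16 (adjusted p = 2.9e-08) in knockout cells against 0.25 ± 0.16 in wild type, and this difference was called (1.51 ± 0.23, adjusted p = 0.00035). Its arrays were at 7.81, 7.85 and 8.15 in knockout cells of TN day 6, against 7.15, 7.16 and 7.0 in wild-type cells of that day. The 2 members not called were the active-zone scaffolds Erc2 (0.02 ± 0.18, adjusted p = 0.95) and Pclo (0.38 ± 0.15, adjusted p = 0.06).

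**Figure D2:**
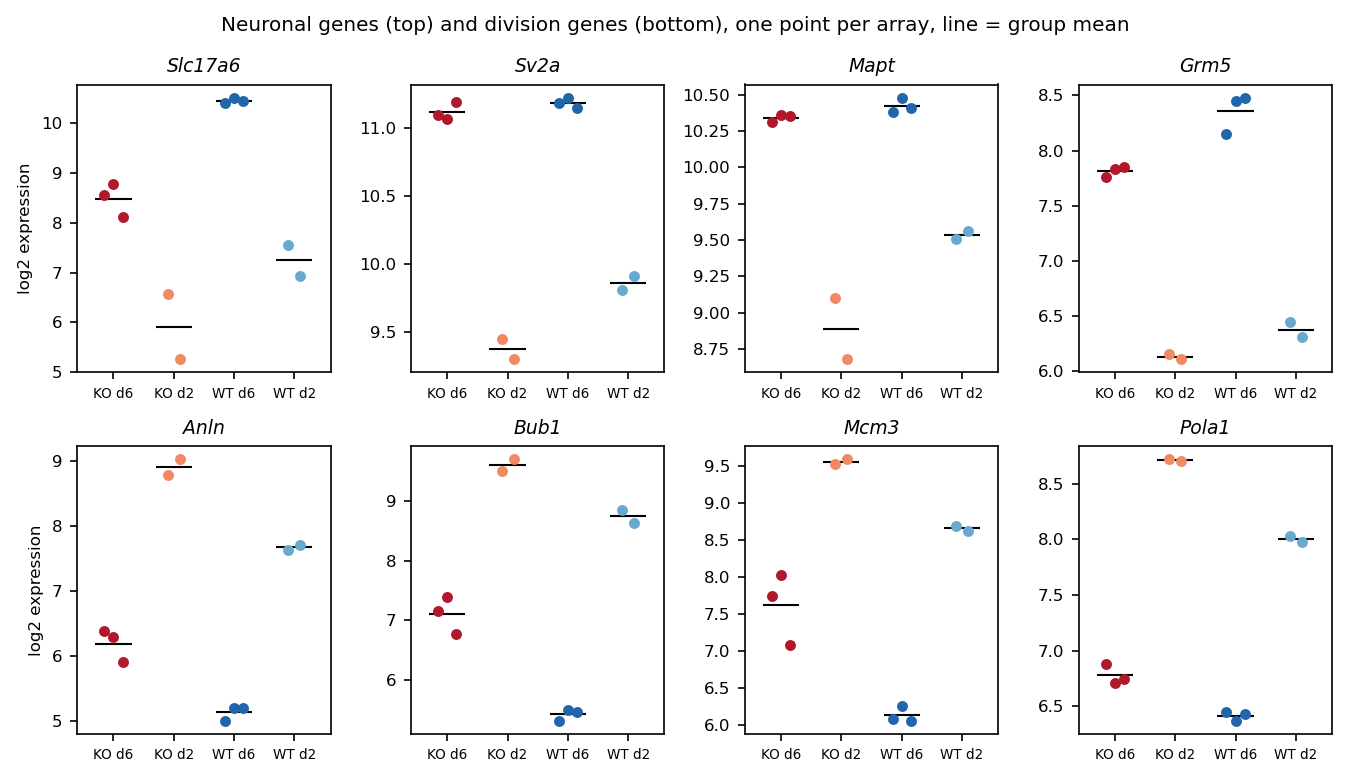
Log2 expression by array (points) and group mean (lines) for 4 neuronal genes (top) and 4 division genes (bottom) in knockout (KO) and wild-type (WT) cells of TN day 6 (d6) and TN day 2 (d2). In both genotypes the neuronal genes are higher and the division genes lower at TN day 6; the division genes of TN day 6 are higher in KO than in WT arrays, as with Bub1 at 6.77 to 7.39 against 5.31 to 5.5.

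Receptors and synthesis genes of the transmitters followed in part. Of 20 glutamatergic genes 14 were higher and 1 lower (median 0.83), or 2 lower without knockout TN day 2 replicate 1. Grm5, a metabotropic glutamate receptor, had 7.76, 7.83 and 7.85 at TN day 6 and 6.16 and 6.11 at TN day 2 (1.68 ± 0.23, adjusted p = 4.2e-06). Grin2b, an NMDA receptor subunit, rose by 1.33 ± 0.15 (adjusted p = 3.4e-07), Gria2, an AMPA receptor subunit, by 1.01 ± 0.19 (adjusted p = 0.00017), and Neurod6, a factor of excitatory neurons, by 1.39 ± 0.13 (adjusted p = 2.9e-08). The member that fell was Gria3, another AMPA subunit, with 8.53, 8.55 and 8.34 in knockout cells of TN day 6 and 9.77 and 10.05 in those of TN day 2 (-1.44 ± 0.29, adjusted p = 0.00046). Wild-type Gria3 had 9.37, 9.31 and 9.4 at TN day 6 and 8.71 and 9.32 at TN day 2. The difference between genotypes was -1.78 ± 0.41 (adjusted p = 0.012), which was not called without wild-type TN day 2 replicate 1 or knockout TN day 2 replicate 2 (adjusted p = 0.122 and 0.0845). Grik2, a kainate receptor subunit, was not called in knockout cells (0.35 ± 0.19, adjusted p = 0.17) and rose by 1.45 ± 0.19 (adjusted p = 5.9e-06) in wild type.

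Of 14 GABAergic genes 7 were higher and 1 lower (median 0.41), or 0 lower without knockout TN day 2 replicate 2. Gad1, which makes GABA, had 10.02, 9.98 and 10.09 at TN day 6 and 9.22 and 9.12 at TN day 2 (0.86 ± 0.16, adjusted p = 0.00025); its wild-type change was 0.85 ± 0.16. Calb2, the calcium buffer calretinin, rose by 1.36 ± 0.19 (adjusted p = 6e-06). Dlx1, a homeobox factor of forebrain interneurons, rose by 0.99 ± 0.22 (adjusted p = 0.0012) in knockout cells, and its wild-type change was -0.61 ± 0.22 (adjusted p = 0.044). The wild-type groups overlapped, with 5.66, 5.68 and 5.87 at TN day 6 and 6.9 and 5.79 at TN day 2. The difference between genotypes was 1.6 ± 0.31 (adjusted p = 0.0037). Slc32a1, the vesicular GABA transporter, had 7.44, 7.4 and 7.56 at TN day 6 and 7.78 and 7.78 at TN day 2 and was not called (-0.31 ± 0.13, adjusted p = 0.059). Sst, the peptide somatostatin, was bright on both days and was not called (0.03 ± 0.12, adjusted p = 0.89).

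GABA-A receptor subunits changed in both directions in knockout cells. With 9 genes, shares of 33.3% higher and 22.2% lower are not far from the 22.1% and 12.8% of all genes. Of 9 measured 3 were higher and 2 lower (0 lower without knockout TN day 2 replicate 2, and 1 without TN day 6 replicate 1 or 2), against 5 higher and 0 lower in wild-type cells. Gabra2 had 7.22, 7.26 and 7.04 at TN day 6 and 5.49 and 4.93 at TN day 2 and rose by 1.96 ± 0.16 (adjusted p = 5.2e-09). Gabra3 had 6.87, 6.92 and 7.12 in knockout cells of TN day 6 and 7.22 and 7.61 in those of TN day 2, and fell by 0.45 ± 0.15 (adjusted p = 0.027). In wild-type cells Gabra3 had 8.67, 8.75 and 8.6 at TN day 6 and 7.47 and 7.58 at TN day 2, a rise of 1.15 ± 0.15 (adjusted p = 5.4e-06). The difference for Gabra3 was -1.6 ± 0.22 (adjusted p = 0.00011) and was called under every setting, but the knockout fall itself was not called without knockout TN day 2 replicate 2 (adjusted p = 0.372) or TN day 6 replicate 1 or 2 (adjusted p = 0.0781 and 0.0703). Gabra5 changed by -0.04 ± 0.23 (adjusted p = 0.92) in knockout cells and rose by 1.24 ± 0.23 (adjusted p = 0.00024) in wild type.

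Of 31 voltage-gated ion channel genes 20 were higher and 3 lower (1 or 2 lower without any single knockout array), with a median of 0.71. Cacnb4, a calcium channel subunit, had 7.64, 7.78 and 7.61 at TN day 6 and 6.29 and 5.89 at TN day 2 (1.59 ± 0.15, adjusted p = 4.6e-08). Kcna4, a fast potassium channel, rose by 1.43 ± 0.17 (adjusted p = 1e-06) and Scn1a, a sodium channel, by 1.43 ± 0.16 (adjusted p = 5.7e-07). Kcnd3, a channel of the A-type potassium current, had 7.99, 7.91 and 8.01 in knockout cells of TN day 6 and 6.62 and 6.63 in those of TN day 2 (1.34 ± 0.1, adjusted p = 2.4e-09). Its wild-type arrays were at 7.11, 7.18 and 7.15 at TN day 6 and 7.13 and 6.98 at TN day 2, and the difference was 1.25 ± 0.14 (adjusted p = 1.5e-05). Kcnq5, an M-current channel, went the other way, with 6.37, 5.89 and 6.05 in knockout cells of TN day 6 against 6.44 and 6.84 in those of TN day 2, and 6.77, 6.96 and 7.1 in wild-type cells of TN day 6 against 6.05 and 5.8 in those of TN day 2. That difference was -1.56 ± 0.26 (adjusted p = 0.00083). The knockout fall of Kcnq5 itself (-0.54 ± 0.18, adjusted p = 0.024) was not called without TN day 6 replicate 2 or 3 (adjusted p = 0.104 and 0.0626). It was also not called with the replicate number as a block (adjusted p = 0.0896), and was -0.34 without knockout TN day 2 replicate 2. Cacna2d1, a calcium channel subunit that also serves synapse formation, fell by 0.93 ± 0.19 (adjusted p = 0.00055) in knockout cells.

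Of 51 neuronal adhesion genes 31 were higher and 6 lower (median 0.53), or 1 lower without knockout TN day 2 replicate 2. Lrrtm2, a postsynaptic partner of neurexins, had 8.81, 8.74 and 8.63 at TN day 6 and 7.29 and 6.7 at TN day 2 (1.73 ± 0.13, adjusted p = 3.5e-09), and Nrxn2, a neurexin, rose by 1.54 ± 0.1 (adjusted p = 3e-10). Cdh4, a cadherin of neurons, rose by 1.33 ± 0.14 (adjusted p = 2.4e-07), and Cdh11, a cadherin shared with mesenchyme, fell by 1.55 ± 0.44 (adjusted p = 0.0088) but was not called without that replicate (adjusted p = 0.1). The difference between genotypes was called for 12 members, 4 with a higher and 8 with a lower change in knockout cells, or 4 lower without wild-type TN day 2 replicate 1, and 8 higher without knockout TN day 2 replicate 1 and 2 higher without replicate 2. Among all genes 2.71% and 2.09% had a higher and a lower knockout change. Tenm3, a teneurin that matches synaptic partners, had 9.89, 9.98 and 9.9 in knockout cells of TN day 6 and 10.22 and 10.62 in those of TN day 2, against 10.89, 10.86 and 10.88 at TN day 6 and 9.86 and 10.16 at TN day 2 in wild type. Its difference was -1.36 ± 0.17 (adjusted p = 4.7e-05). Cntnap5a, a contactin-associated protein, had 5.58, 5.61 and 5.53 in knockout cells of TN day 6 and 5.12 and 5.21 in those of TN day 2 (0.41 ± 0.2, adjusted p = 0.13) and rose by 1.81 ± 0.2 (adjusted p = 7.3e-07) in wild type. Adgrl2, a latrophilin, differed by -0.63 ± 0.12 (adjusted p = 0.0032), with -0.21 ± 0.08 in knockout cells and 0.42 ± 0.08 in wild type.

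Axon guidance genes moved in both directions. Of 39, 15 were higher and 8 lower, with a median of 0.05. The lower count was 5 without knockout TN day 2 replicate 2 and 13 when the model held only the arrays compared. Dscam, a receptor that keeps sister neurites apart, rose by 1.28 ± 0.19 (adjusted p = 1.4e-05), Efnb3, an ephrin ligand, by 1.18 ± 0.18 (adjusted p = 1.9e-05), and Epha5, an ephrin receptor, by 1.11 ± 0.19 (adjusted p = 0.0001). Sema3c, a secreted semaphorin, had 8.09, 8.02 and 7.62 at TN day 6 and 9.2 and 10.4 at TN day 2 (-1.89 ± 0.31, adjusted p = 4.9e-05). Dcc, the netrin receptor, had 8.32, 8.39 and 7.99 at TN day 6 and 9.61 and 9.39 at TN day 2 and fell by 1.27 ± 0.16 (adjusted p = 1.9e-06), and Robo3, a Robo family receptor of crossing axons, fell by 1.31 ± 0.22 (adjusted p = 5.1e-05). Robo1 overlapped between the days, at 10.17, 10.38 and 9.97 at TN day 6 and 10.31 and 10.43 at TN day 2 (-0.2 ± 0.14, adjusted p = 0.29). Unc5a, another netrin receptor, rose by 0.73 ± 0.1 (adjusted p = 9.2e-06) in knockout cells and fell by 0.53 ± 0.1 (adjusted p = 0.00051) in wild type, a difference of 1.27 ± 0.15 (adjusted p = 2.2e-05).

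Of 14 neurotrophin and receptor genes 8 were higher and 0 lower (median 0.61). Ntrk2, the receptor of brain-derived neurotrophic factor, had 8.2, 8.32 and 8.24 at TN day 6 and 7.35 and 7.27 at TN day 2 (0.94 ± 0.19, adjusted p = 0.00051), and its wild-type change was 0.91 ± 0.19. Ngfr, the low-affinity neurotrophin receptor, had 9.36, 9.55 and 9.49 in knockout cells of TN day 6 and 8.59 and 8.55 in those of TN day 2 (0.9 ± 0.13, adjusted p = 9.8e-06). In wild type Ngfr had 8.62, 8.94 and 8.92 at TN day 6 and 9.33 and 9.0 at TN day 2, and the difference was 1.24 ± 0.18 (adjusted p = 0.00029). Gfra1, a receptor of the GDNF family, rose by 0.86 ± 0.11 (adjusted p = 3.5e-06), and Sort1, a sorting receptor of neurotrophins, was not called (0.23 ± 0.11, adjusted p = 0.12).

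Of 22 neuropeptide and granin genes 10 were higher and 1 lower (median 0.34). Tac1 had 6.31, 6.5 and 6.23 in knockout cells of TN day 6 and 4.35 and 3.74 in those of TN day 2, a 4.93-fold rise. In wild-type cells it had 10.26, 10.18 and 10.16 at TN day 6 and 5.31 and 4.89 at TN day 2, a rise of 5.1 ± 0.2 (adjusted p = 9.3e-13), and the difference was -2.8 ± 0.29 (adjusted p = 4e-06). Every wild-type array of TN day 6 lay far above every knockout array of that day. Penk, the precursor of enkephalins, was the 1 that fell, with 6.92, 7.05 and 6.74 at TN day 6 and 8.56 and 9.23 at TN day 2 (-1.99 ± 0.35, adjusted p = 9.7e-05). Its wild-type arrays were at 8.53, 8.57 and 8.58 at TN day 6 and 7.12 and 8.58 at TN day 2, and the difference was -2.7 ± 0.49 (adjusted p = 0.0021). Npy, neuropeptide Y, rose by 0.85 ± 0.14 (adjusted p = 4e-05), and Chga, chromogranin A, by 0.96 ± 0.19 (adjusted p = 0.00047).

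Genes of cell division fell throughout. All 31 mitosis genes were lower at TN day 6, each under every setting, with changes between -2.71 and -1.07 and a median of -1.80. The share of all genes that were lower was 12.8%. The promoter windows of the 3 largest falls are shown, since mitosis genes are known to be silenced through a CHR element (TTTGAA) when cells stop dividing. Their promoters also often hold CCAAT boxes (CCAAT). The windows are RefSeq sequence of GRCm38.p6, 300 bases each around the gene start, mostly before it, 5′ to 3′ on the gene's strand, with matches of either motif on either strand in capitals.
Anln, chr9:22389157-22389456, minus strand: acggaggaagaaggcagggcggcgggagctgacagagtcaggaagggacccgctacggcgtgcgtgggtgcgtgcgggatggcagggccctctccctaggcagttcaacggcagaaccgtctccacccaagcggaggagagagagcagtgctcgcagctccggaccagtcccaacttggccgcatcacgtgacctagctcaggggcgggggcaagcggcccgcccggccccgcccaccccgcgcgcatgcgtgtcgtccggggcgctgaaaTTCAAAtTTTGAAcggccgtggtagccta
Hmmr, chr11:40733388-40733687, minus strand: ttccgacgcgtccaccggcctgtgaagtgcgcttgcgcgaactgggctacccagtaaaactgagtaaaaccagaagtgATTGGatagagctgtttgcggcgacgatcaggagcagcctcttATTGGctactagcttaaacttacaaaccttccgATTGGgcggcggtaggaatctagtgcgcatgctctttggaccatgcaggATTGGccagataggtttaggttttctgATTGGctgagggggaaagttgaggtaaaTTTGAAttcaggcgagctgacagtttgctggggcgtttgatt
Bub1, chr2:127831810-127832109, minus strand: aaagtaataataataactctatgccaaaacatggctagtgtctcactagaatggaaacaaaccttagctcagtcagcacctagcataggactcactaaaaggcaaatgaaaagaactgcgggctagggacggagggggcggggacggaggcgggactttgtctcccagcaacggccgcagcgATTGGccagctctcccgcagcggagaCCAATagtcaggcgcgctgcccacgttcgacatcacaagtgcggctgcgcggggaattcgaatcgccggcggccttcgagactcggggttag
Anln held 2 CHR matches and 0 CCAAT matches, Hmmr held 1 and 5, and Bub1 held 0 and 2. Of the 26 mitosis genes with a window in the RefSeq table, 21 (80.8%) held TTTGAA or its reverse complement TTCAAA, against 20.2% of all 27025 genes with a window. CCAAT or ATTGG was found in 20 of the 26 (76.9%), against 41.1% of all genes. A match describes these letters only and is not a measured binding site.

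Anln, which encodes the cytokinesis protein anillin, had 6.38, 6.29 and 5.9 at TN day 6 and 8.78 and 9.03 at TN day 2, a 6.56-fold fall (-2.71 ± 0.22, adjusted p = 7.3e-09). Hmmr, a spindle protein, had 5.67, 5.92 and 5.37 at TN day 6 and 8.05 and 8.33 at TN day 2 (-2.54 ± 0.21, adjusted p = 5.9e-09). Bub1, a kinase of the spindle checkpoint, had 7.15, 7.39 and 6.77 at TN day 6 and 9.51 and 9.71 at TN day 2 (-2.51 ± 0.23, adjusted p = 2.4e-08). In all 3, replicate 3 of TN day 6 was the lowest array. Kif20a, a motor of cytokinesis, fell by 2.36 ± 0.18 (adjusted p = 3.1e-09). In wild-type cells all 31 fell as well, with a median of -2.41. The mean level of the list at TN day 6 was 7.11, 7.21 and 6.70 in knockout cells, against 5.90, 5.99 and 5.93 in wild type, while at TN day 2 it was 8.80 and 8.82 in knockout cells, against 8.44 and 8.11 in wild type. The fall was smaller in knockout cells for 4 members that passed the test of the difference, among them Cenpf, a kinetochore protein (1.34 ± 0.37, adjusted p = 0.042), and Prc1, a midzone protein (1.17 ± 0.31, adjusted p = 0.029). That count was 0 without wild-type TN day 2 replicate 1 and 12 without wild-type TN day 2 replicate 2 or without knockout TN day 6 replicate 3, and 1 to 3 without each other array.

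Of 31 DNA replication genes 30 were lower and 0 higher, with a median of -1.03. Mcm3, a subunit of the replicative helicase, had 7.74, 8.03 and 7.08 at TN day 6 and 9.53 and 9.6 at TN day 2 (-1.95 ± 0.2, adjusted p = 1.2e-07), and Mcm6, another subunit, fell by 1.67 ± 0.12 (adjusted p = 1.1e-09). Pola1, the catalytic subunit of the priming polymerase, had 6.88, 6.71 and 6.75 at TN day 6 and 8.72 and 8.7 at TN day 2 (-1.93 ± 0.14, adjusted p = 1.6e-09). Pole, the leading-strand polymerase, fell by 1.71 ± 0.15 (adjusted p = 2.1e-08). The member not called was Dut, which keeps uracil out of DNA (-0.24 ± 0.1, adjusted p = 0.074). Prim1, the primase, had 8.51, 8.37 and 8.11 in knockout cells of TN day 6 and 9.43 and 9.29 in those of TN day 2, against 8.61, 8.74 and 8.63 at TN day 6 and 8.9 and 8.8 at TN day 2 in wild type, and its fall was larger in knockout cells (-0.84 ± 0.16, adjusted p = 0.0037). The E2F core GCGGGAA or its reverse complement TTCCCGC was present in 12 of the 25 lower replication genes with a promoter window (48.0%), against 5.29% of all genes.

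Several of the 15 largest falls, ranked in the same way as the rises, were in genes of matrix and smooth muscle. Sulf1, a sulfatase that edits heparan sulfate, had 6.91, 7.04 and 6.63 at TN day 6 and 11.28 and 11.76 at TN day 2, a 25.2-fold fall (-4.66 ± 0.45, adjusted p = 5.2e-08). Slc38a4, an amino acid transporter, had 6.87, 6.78 and 6.85 at TN day 6 and 11.25 and 11.7 at TN day 2 (-4.64 ± 0.32, adjusted p = 1e-09). Acta2, smooth muscle actin, had 7.68, 7.64 and 6.4 at TN day 6 and 11.44 and 11.94 at TN day 2 (-4.45 ± 0.55, adjusted p = 1.5e-06). In these genes every array of TN day 6 lay far below both arrays of TN day 2. Also among the 15 largest falls were Col12a1, a fibril-associated collagen (-4.21 ± 0.56), Ogn, a small proteoglycan (-3.89 ± 0.54), Lox, which cross-links collagen (-3.61 ± 0.54), and Tagln, an actin-binding protein of smooth muscle (-3.65 ± 0.42). Adamts1, a secreted protease, fell by 3.76 ± 0.35, Il33, a cytokine, fell by 3.85 ± 0.42, Itm2a, a membrane protein, fell by 4.3 ± 0.36, and Lgals1, a galectin, fell by 3.48 ± 0.28. Arhgap29 fell by 3.47 ± 0.33 and Mybpc1, a myosin-binding protein, fell by 3.45 ± 0.26. Adjusted p-values of these 10 ran up to 1.5e-05, and all 15 were called under every setting.

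Of 28 mesenchymal, smooth muscle and matrix genes 16 were lower and 3 higher, with a median of -0.83, and 10 were lower without knockout TN day 2 replicate 2. Col3a1, a fibrillar collagen, had 8.83, 8.83 and 8.8 at TN day 6 and 11.0 and 11.3 at TN day 2 (-2.33 ± 0.37, adjusted p = 2.8e-05), Col1a1 fell by 1.77 ± 0.41 and Col1a2 fell by 1.87 ± 0.42. Dcn, a proteoglycan that binds collagen, fell by 3.21 ± 0.48 (adjusted p = 1.7e-05) and Fn1, fibronectin, fell by 2.93 ± 0.27 (adjusted p = 3.2e-08). In wild-type cells 12 were lower and 0 higher. The wild-type arrays of TN day 2 were far apart for such genes, with 7.77 and 10.74 for Sulf1 and 8.31 and 10.83 for Acta2. The list's mean level was 7.61, 7.69 and 7.21 in knockout cells of TN day 6 and 8.45 and 8.86 in those of TN day 2, and in wild-type cells it was 6.84 to 6.87 at TN day 6 and 7.19 and 8.27 at TN day 2. Its part in the changes of other genes was not tested.

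The 3 members that were higher all belong to basement membrane. Col4a1, a chain of collagen IV, had 9.37, 9.4 and 7.77 at TN day 6 and 7.65 and 7.42 at TN day 2. Col4a2, another chain, had 9.48, 9.46 and 7.77 at TN day 6 and 7.67 and 7.32 at TN day 2. Lama1, a laminin chain, had 10.25, 10.16 and 8.83 at TN day 6 and 8.83 and 8.37 at TN day 2. In each of these, replicates 1 and 2 of TN day 6 were high and replicate 3 was close to the TN day 2 arrays. Their changes were 1.31 ± 0.32 (adjusted p = 0.0026), 1.41 ± 0.35 (adjusted p = 0.0026) and 1.15 ± 0.27 (adjusted p = 0.0018), and none was called when the model held only the arrays compared (adjusted p = 0.0649, 0.0627 and 0.0683). Lama1 was also not called without knockout TN day 2 replicate 2 (adjusted p = 0.0546). Lamb1, a laminin chain that was not called (adjusted p = 1.0), was likewise low in replicate 3, with 10.77, 10.86 and 9.13. The endoderm and epithelium list, in which replicate 3 was also low, had 5 of 16 genes higher and 2 lower, but 0 higher without knockout TN day 2 replicate 2 or TN day 6 replicate 1, 1 without TN day 6 replicate 2, 3 without TN day 2 replicate 1 and 7 without TN day 6 replicate 3. Krt8, a keratin of simple epithelia, had 8.36, 8.52 and 7.56 at TN day 6 and 8.06 and 7.44 at TN day 2 (0.4 ± 0.23, adjusted p = 0.19). Gata6, a factor of endoderm and heart, fell by 2.55 ± 0.45 (adjusted p = 0.0001).

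The change between days differed between genotypes for 957 genes (4.8%), with 540 higher (2.71%) and 417 lower (2.09%) in knockout cells. After median centring the split was 389 higher and 592 lower, so that 39.7% of the calls were higher in place of 56.4%. Without wild-type TN day 2 replicate 1 it was 192 and 197, and without knockout TN day 2 replicate 2 it was 231 and 160. Across genes the 2 changes correlated at r = 0.73, as a description only, since genes are not independent replicates. In 54 genes the change was called higher in knockout and lower in wild-type cells, and in 29 it was called lower in knockout and higher in wild-type cells. The difference itself was called for all of them.

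**Figure D3:**
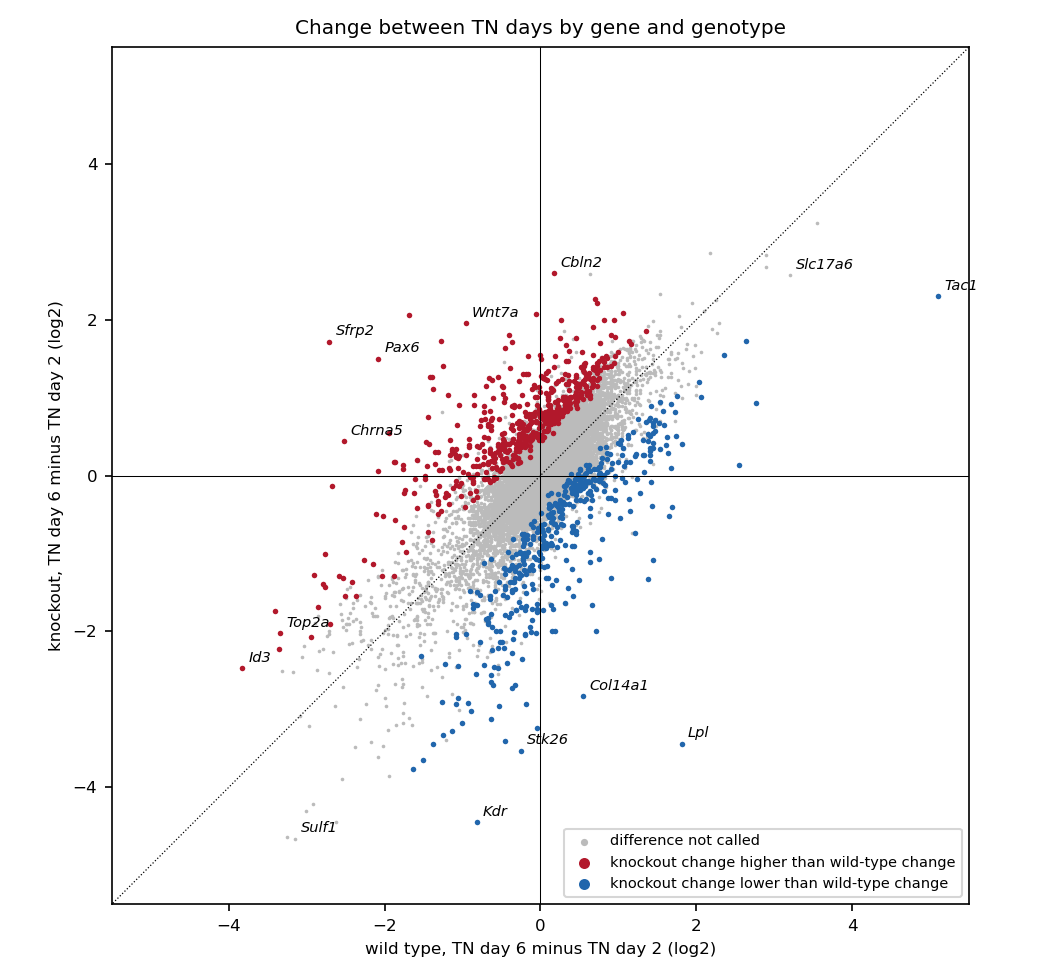
Each point is 1 of 19938 genes, with its log2 change, TN day 6 minus TN day 2, in knockout cells (vertical) and in wild-type cells (horizontal); the dotted line marks equal change. Colours mark the 540 genes whose knockout change was higher and the 417 whose knockout change was lower; Sfrp2 and Pax6 lie at upper left, with knockout rises and wild-type falls, and Lpl at lower right.

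Some progenitor transcription factors changed in opposite directions in the 2 genotypes. Pax6, a factor of radial glia and of several neuron types, had 8.89, 9.0 and 8.61 in knockout cells of TN day 6 and 7.62 and 7.06 in those of TN day 2, a 2.82-fold rise (1.5 ± 0.26, adjusted p = 0.00011). In wild-type cells Pax6 had 6.53, 6.62 and 6.39 at TN day 6 and 9.14 and 8.06 at TN day 2 and fell by 2.08 ± 0.26 (adjusted p = 3.2e-06). The order of the genotypes thus turned, with knockout above wild type at TN day 6 (2.32 ± 0.24, adjusted p = 5.4e-07) and below it at TN day 2 (-1.26 ± 0.29, adjusted p = 0.0062), and the difference of the changes was 3.58 ± 0.37 (adjusted p = 4.6e-06). Sox21, a transcription factor of the Sox family, rose by 1.73 ± 0.27 (adjusted p = 2.3e-05) in knockout cells and fell by 1.28 ± 0.27 in wild type, a difference of 3.01 ± 0.38 (adjusted p = 5.4e-05). Dbx1, a homeobox factor of interneuron progenitors, rose by 1.4 ± 0.18 (adjusted p = 2e-06) and fell by 1.25 ± 0.18 in wild type (2.65 ± 0.25, adjusted p = 1.5e-06). Sox2, which keeps neural progenitors in their state, had 9.8, 10.07 and 9.48 in knockout cells of TN day 6 and 9.88 and 9.33 in those of TN day 2 (0.17 ± 0.24, adjusted p = 0.63). Wild-type Sox2 had 8.24, 8.21 and 8.19 at TN day 6 and 10.5 and 9.69 at TN day 2, and the difference was 2.06 ± 0.34 (adjusted p = 0.00098).

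Of 21 neural progenitor and radial glia genes, 4 were higher and 7 lower in knockout cells (median -0.22), against 0 higher and 16 lower in wild type (median -1.11). The difference was called for 8, all with a higher knockout change, and for 5 without wild-type TN day 2 replicate 1. The knockout count of higher genes was 1 without knockout TN day 2 replicate 2 and 2 without knockout TN day 6 replicate 2. Among all genes 2.71% had a higher knockout change. The list did not move as one. Emx2, a dorsal forebrain homeobox factor, had 5.05, 4.88 and 4.9 at TN day 6 and 7.16 and 7.65 at TN day 2 and fell by 2.46 ± 0.29 (adjusted p = 6.7e-07), Hes1 fell by 2.05 ± 0.26 (adjusted p = 1.7e-06), and Gli3, a hedgehog pathway factor, fell by 1.7 ± 0.18 (adjusted p = 2e-07). Fabp7, a lipid carrier of radial glia, had 11.74, 11.8 and 11.63 at TN day 6 and 10.76 and 9.77 at TN day 2 (1.46 ± 0.48, adjusted p = 0.021), and was not called without knockout TN day 2 replicate 2 (adjusted p = 0.272). Vim, an intermediate filament of progenitors and many other cells, was not called (-0.44 ± 0.21, adjusted p = 0.12).

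The Notch pathway, in which ligands on one cell hold its neighbours in the progenitor state, also split. Of 20 genes 5 were higher and 6 lower in knockout cells (3 higher without knockout TN day 2 replicate 2), against 3 higher and 12 lower in wild type. The difference was called for 6, all with a higher knockout change, and for 4 without wild-type TN day 2 replicate 1. Dll1, a ligand, had 8.95, 8.79 and 8.5 in knockout cells of TN day 6 and 8.86 and 8.24 in those of TN day 2, against 8.15, 8.22 and 8.19 at TN day 6 and 10.29 and 9.23 at TN day 2 in wild type. Its knockout change was not called (0.2 ± 0.22, adjusted p = 0.52), its wild-type change was -1.58 ± 0.22 (adjusted p = 8.2e-06), and the difference was 1.77 ± 0.31 (adjusted p = 0.0013). Dll3, another ligand, differed by 1.89 ± 0.34 (adjusted p = 0.002) and Jag1 by 1.15 ± 0.25 (adjusted p = 0.0081). Hes5, the main Notch target of neural progenitors, differed by 1.72 ± 0.32 (adjusted p = 0.0028), with a knockout rise of 0.65 ± 0.23 (adjusted p = 0.031) that was lost without knockout TN day 2 replicate 2 (adjusted p = 0.351) or TN day 6 replicate 2 (adjusted p = 0.105). Notch2, a receptor, fell by 1.5 ± 0.19 in knockout cells and fell by 1.49 ± 0.19 in wild type. Jag2, a ligand, rose by 1.22 ± 0.23 (adjusted p = 0.0002) and Dner, a neuronal ligand, by 1.0 ± 0.08 (adjusted p = 9.2e-09) in knockout cells.

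Of 25 Wnt ligands, modulators and targets 4 were higher and 12 lower in knockout cells (median -0.36), with 7 lower without knockout TN day 2 replicate 2. Sfrp2, a secreted Wnt modulator, had the largest positive difference among called genes without Gm, LOC or Rik symbols, 4.43 ± 0.28 (adjusted p = 3.6e-09). It had 10.63, 10.85 and 10.03 in knockout cells of TN day 6 and 8.65 and 8.91 in those of TN day 2, and 7.14, 7.3 and 6.97 in wild-type cells of TN day 6 and 10.23 and 9.47 in those of TN day 2. The groups did not overlap within either genotype, and they ran in opposite directions (1.72 ± 0.2 and -2.71 ± 0.2). The ligands Wnt7a and Wnt7b rose in knockout cells, by 1.96 ± 0.3 (adjusted p = 2.1e-05) and 1.26 ± 0.3 (adjusted p = 0.0019), and fell in wild type, with changes of -0.96 ± 0.3 and -1.42 ± 0.3. The wild-type fall of Wnt7a came mainly from 1 array, with 6.01, 5.95 and 6.11 at TN day 6 and 7.84 and 6.14 at TN day 2. Wild-type Wnt7b had 6.5, 6.77 and 6.86 at TN day 6 and 8.91 and 7.34 at TN day 2. Wnt1, a ligand of the dorsal midline, had 4.93, 5.31 and 4.91 in knockout cells of TN day 6 and 7.29 and 8.67 in those of TN day 2, against 4.88, 5.09 and 4.89 at TN day 6 and 4.97 and 5.31 at TN day 2 in wild type. It thus stood near the wild-type level at TN day 6 and was higher in knockout cells only at TN day 2 (2.84 ± 0.27, adjusted p = 1e-06). Lef1, a transcription factor of the pathway, followed that pattern, with 5.44, 5.83 and 5.61 in knockout cells of TN day 6 and 8.16 and 9.01 in those of TN day 2, against 5.34, 5.65 and 5.86 at TN day 6 and 5.72 and 6.57 at TN day 2 in wild type (-2.43 ± 0.4, adjusted p = 0.00078). Sfrp1 fell by 2.18 ± 0.29 (adjusted p = 3.5e-06) and Dkk2, a Wnt inhibitor, fell by 2.15 ± 0.41 (adjusted p = 0.00024).

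**Figure D4:**
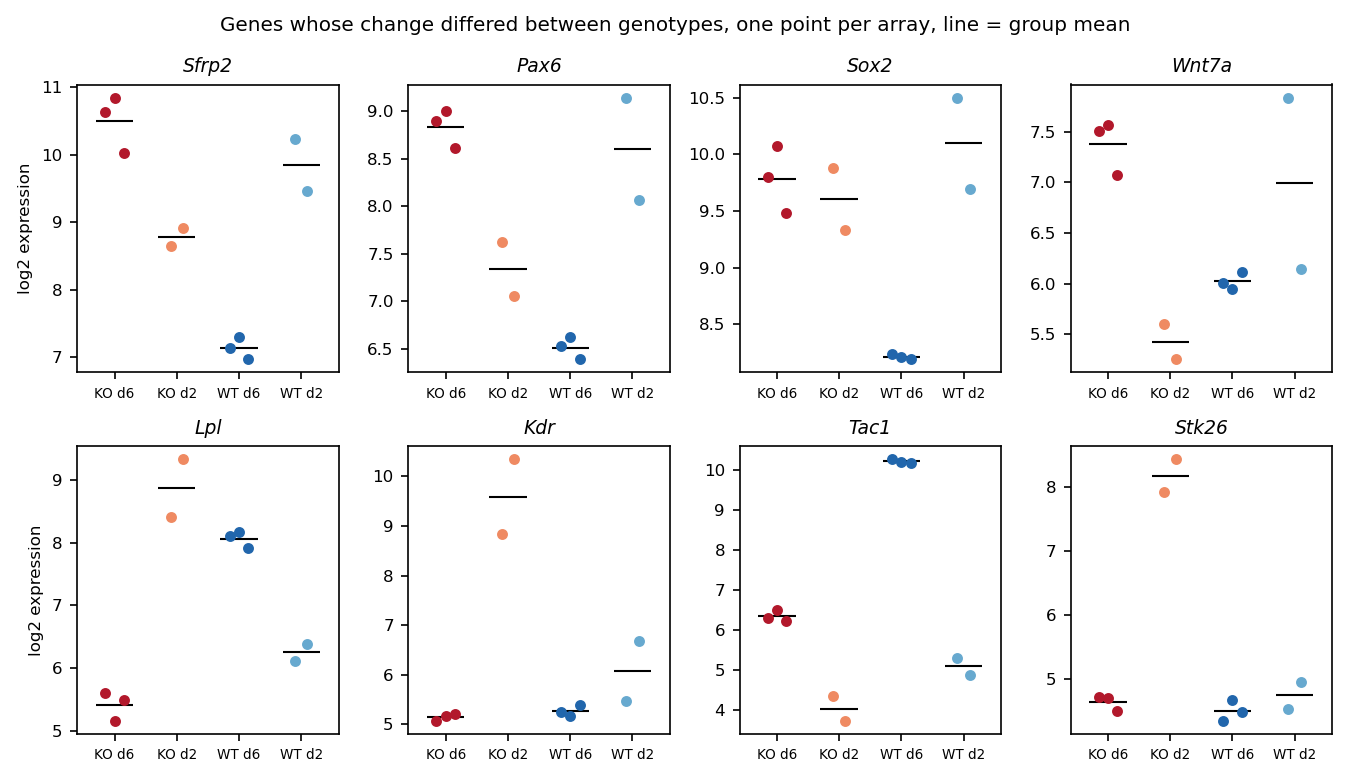
Log2 expression by array (points) and group mean (lines) for 8 genes whose change between TN day 2 and TN day 6 differed between genotypes, in knockout (KO) and wild-type (WT) cells of TN day 6 (d6) and TN day 2 (d2). The top row shows Sfrp2, Pax6, Sox2 and Wnt7a, which are lower in WT cells of TN day 6 than in KO cells of that day; the bottom row shows Lpl, Kdr and Stk26, highest in KO cells of TN day 2, and Tac1, high in WT cells of TN day 6.

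Several other genes had higher levels on both knockout arrays of TN day 2 than on any other array of TN day 2 or TN day 6. Lpl, lipoprotein lipase, had the largest negative difference among called genes without Gm, LOC or Rik symbols, -5.25 ± 0.26 (adjusted p = 6.3e-11). It had 5.6, 5.16 and 5.49 in knockout cells of TN day 6 and 8.4 and 9.33 in those of TN day 2, against 8.11, 8.17 and 7.91 at TN day 6 and 6.12 and 6.39 at TN day 2 in wild type, so that it fell 10.9-fold in one genotype and rose in the other (1.81 ± 0.18). Kdr, the main receptor of vascular endothelial growth factor, had 5.07, 5.16 and 5.2 in knockout cells of TN day 6 and 8.84 and 10.35 in those of TN day 2, and 5.25, 5.16 and 5.39 at TN day 6 and 5.48 and 6.68 at TN day 2 in wild type (-3.63 ± 0.62, adjusted p = 0.0012). Stk26, a kinase of the Ste20 family, had 4.72, 4.7 and 4.5 in knockout cells of TN day 6 and 7.91 and 8.43 in those of TN day 2 (-3.28 ± 0.24, adjusted p = 2.9e-08). In both genes the knockout arrays of TN day 6 were near the wild-type arrays of that day. Col14a1, a collagen, differed by -3.39 ± 0.48 (adjusted p = 0.00017) and Zim1, an imprinted zinc finger gene, by -2.96 ± 0.68 (adjusted p = 0.013). The call for Zim1 ended without wild-type TN day 2 replicate 1 (adjusted p = 0.162) or knockout TN day 2 replicate 2 (adjusted p = 0.0951).

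Pakap, an anchor of protein kinase A, and Inpp4b, a phosphatase of inositol lipids, reversed direction. Pakap fell by 1.33 ± 0.26 (adjusted p = 0.0004) in knockout cells and rose by 1.38 ± 0.26 (adjusted p = 0.00037) in wild type, a difference of -2.71 ± 0.37 (adjusted p = 0.00014). Inpp4b had 5.09, 5.27 and 5.44 in knockout cells of TN day 6 and 5.98 and 6.71 in those of TN day 2, against 6.98, 7.24 and 6.93 at TN day 6 and 5.34 and 5.89 at TN day 2 in wild type, a difference of -2.52 ± 0.26 (adjusted p = 4.3e-06). In the other direction, Chrna5, a nicotinic receptor subunit, had 8.93, 8.91 and 9.6 in knockout cells of TN day 6 and 8.83 and 8.58 in those of TN day 2 (0.44 ± 0.21, adjusted p = 0.11). It fell by 2.52 ± 0.21 (adjusted p = 1.1e-08) in wild type, a difference of 2.96 ± 0.3 (adjusted p = 2.9e-06). Gpr50, an orphan receptor, rose by 2.06 ± 0.45 (adjusted p = 0.00099) against a wild-type change of -1.69 ± 0.45 (3.75 ± 0.64, adjusted p = 0.0011), and Moxd1, a monooxygenase, by 1.27 ± 0.24 (adjusted p = 0.00024) against -1.39 ± 0.24 in wild type (2.65 ± 0.34, adjusted p = 6.3e-05). The wild-type arrays of TN day 2 were far apart for Gpr50, at 8.69 and 6.48, against 5.72, 6.2 and 5.79 at TN day 6. Ednrb, an endothelin receptor, was not called in knockout cells (-0.13 ± 0.33, adjusted p = 0.81) and fell by 2.67 ± 0.33 (adjusted p = 2.6e-06) in wild type (2.55 ± 0.47, adjusted p = 0.0025).

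Of 24 hindbrain, spinal and sensory neuron factors 10 were higher and 0 lower in knockout cells, against 3 and 1 in wild type. The difference between genotypes was called for 3, all with a higher knockout change, and not for the other 21. Lhx4, a motor neuron and interneuron factor, had 8.07, 8.4 and 7.73 in knockout cells of TN day 6 and 6.31 and 6.47 in those of TN day 2 (1.68 ± 0.15, adjusted p = 2.7e-08), and differed from wild type by 1.35 ± 0.22 (adjusted p = 0.0006). Gata3, a factor of ventral interneurons, had 7.47, 7.56 and 6.79 at TN day 6 and 5.32 and 5.93 at TN day 2 in knockout cells and differed by 2.09 ± 0.41 (adjusted p = 0.0038). Pou4f1, a sensory neuron factor, rose by 1.31 ± 0.23 (adjusted p = 8.7e-05) and Isl1, of motor and sensory neurons, by 0.84 ± 0.22 (adjusted p = 0.0042). Neither difference between genotypes was called by limma (adjusted p = 0.31 and 0.22), and Pou4f1 rose in wild type too (0.67 ± 0.23). Lhx1, with 9.87, 9.93 and 9.93 at TN day 6 and 9.4 and 9.13 at TN day 2, was not called (0.64 ± 0.54, adjusted p = 0.39). Its SE pools the spread of all 12 groups. The SD of Lhx1 was 2.65 in knockout ES cells, against 0.04 and 0.19 in knockout cells of TN day 6 and TN day 2. The lack of a call therefore does not show that Lhx1 stayed the same.

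Of 15 cortical projection neuron factors 8 were higher and 1 lower. Lmo3, a LIM-only cofactor, had 9.26, 9.27 and 9.57 at TN day 6 and 7.52 and 7.23 at TN day 2 and rose by 1.99 ± 0.15 (adjusted p = 2.6e-09), against 0.81 ± 0.15 in wild type (1.18 ± 0.21, adjusted p = 0.0019). Reln, the guidance protein reelin, rose by 1.06 ± 0.16 (adjusted p = 1.3e-05) and Bcl11b by 0.81 ± 0.12 (adjusted p = 1.3e-05), with wild-type changes of 1.13 ± 0.16 and 0.86 ± 0.12. Cux1 was not called (0.04 ± 0.13, adjusted p = 0.86). Of 17 proneural and neuronal basic helix-loop-helix factors 2 were higher and 4 lower, with 1 higher without either knockout TN day 2 array or without TN day 6 replicate 2 or 3. Neurod4 had 6.78, 6.89 and 6.24 in knockout cells of TN day 6 and 7.71 and 8.12 in those of TN day 2, against 4.66, 4.66 and 4.52 at TN day 6 and 7.49 and 7.55 at TN day 2 in wild type, so its fall was smaller in knockout cells (1.63 ± 0.22, adjusted p = 9.5e-05). Nhlh2 fell by 1.19 ± 0.2 (adjusted p = 6e-05) and Tcf4 fell by 0.69 ± 0.15 (adjusted p = 0.00073). Of 26 Hox genes, which record position along the body axis, 1 was higher and 8 lower, with 0 higher without either knockout TN day 2 array or without TN day 6 replicate 1 or 2, and 0 differed between genotypes by limma, with 5 higher and 0 lower at an unadjusted p under 0.05. Hoxc6 had 7.63, 7.93 and 8.18 at TN day 6 and 9.38 and 9.4 at TN day 2 (-1.48 ± 0.34, adjusted p = 0.0016), Hoxc4 fell by 1.11 ± 0.19 (adjusted p = 7.1e-05) and Hoxb9 fell by 1.11 ± 0.29 (adjusted p = 0.0045), while Hoxa5 overlapped between the days (0.15 ± 0.2, adjusted p = 0.61).

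Among very long genes, changes that were lower in knockout cells outnumbered those that were higher. Of the 530 genes that span over 300 kb, 38.9% were higher and 14.5% lower at TN day 6 in knockout cells, against 41.1% and 11.7% in wild type. The difference was lower in knockout cells for 57 of them (10.8%) and higher for 20 (3.77%), against 2.09% and 2.71% of all genes. In the 1764 genes between 100 and 300 kb the order was the other way, with 6.41% higher and 4.02% lower. After median centring 39.7% of all called differences were higher, in place of 56.4%. The span classes were not recounted on centred values, so their order there is not known. A list of very long genes was chosen with earlier results of these data known, so its counts are not separate support for the span classes. Of the 48 very long neuronal and other genes listed, 17 were higher and 9 lower in knockout cells (4 lower without knockout TN day 2 replicate 2), against 26 and 3 in wild type. The difference was called lower for 10 and higher for 0 by limma (19 and 4 at an unadjusted p under 0.05), with 4 lower without wild-type TN day 2 replicate 1 and 6 without knockout TN day 2 replicate 2.

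**Figure D5:**
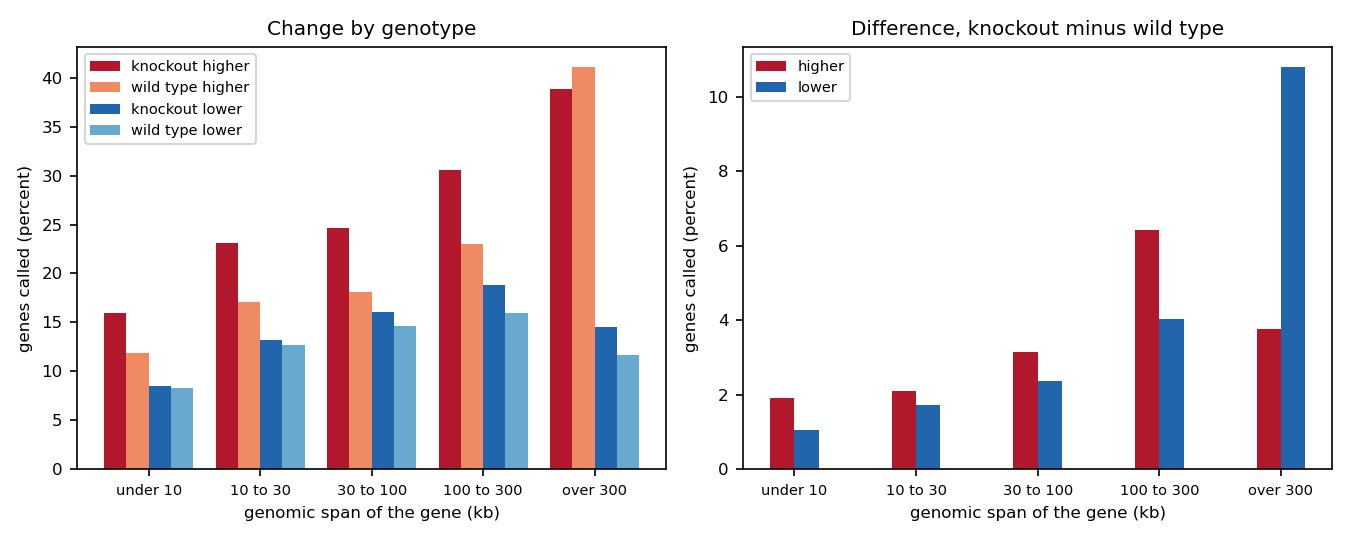
Percent of genes called higher or lower at TN day 6 against TN day 2 in knockout and wild-type cells (left), and percent whose change differed between genotypes, as knockout minus wild type (right), by the genomic span of the gene in kb. On the values as deposited, only in the class over 300 kb do lower differences (10.8%) outnumber higher ones (3.77%). The classes were not recounted after median centring.

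Sgcz, a sarcoglycan gene of 1143866 bases, had 5.35, 5.21 and 5.23 in knockout cells of TN day 6 and 4.92 and 4.63 in those of TN day 2, against 6.92, 7.01 and 6.63 at TN day 6 and 5.19 and 5.26 at TN day 2 in wild type. Its difference was -1.14 ± 0.2 (adjusted p = 0.0015). Ptprd, a phosphatase of synapse formation, fell by 0.82 ± 0.25 (adjusted p = 0.013) in knockout cells and rose by 0.79 ± 0.25 (adjusted p = 0.019) in wild type, but its knockout fall was not called without knockout TN day 2 replicate 1 (adjusted p = 0.0515) or 2 (adjusted p = 0.0856), nor its difference without replicate 2 (adjusted p = 0.0514) or wild-type TN day 2 replicate 1 (adjusted p = 0.0785). Pard3, a polarity protein, had 8.33, 8.5 and 8.2 in knockout cells of TN day 6 and 8.78 and 8.95 in those of TN day 2, against 9.49, 9.45 and 9.43 at TN day 6 and 8.83 and 8.8 at TN day 2 in wild type (-1.15 ± 0.15, adjusted p = 8.9e-05). Exoc4, a part of the exocyst, fell by 1.56 ± 0.14 (adjusted p = 1.7e-08) in knockout cells and fell by 0.43 ± 0.14 in wild type (-1.13 ± 0.19, adjusted p = 0.0013), and Gpc6, a glypican, fell by 1.71 ± 0.32 (adjusted p = 0.00021). Some very long genes rose in both genotypes. Macrod2 had 8.4, 8.71 and 8.46 in knockout cells of TN day 6 and 6.85 and 7.01 in those of TN day 2 and rose by 1.59 ± 0.21 (adjusted p = 3.4e-06), against 1.67 ± 0.21 in wild type. Dlg2, a postsynaptic scaffold, rose by 1.03 ± 0.16 (adjusted p = 2.8e-05) against 0.88 ± 0.16, and Nrg3, a neuregulin, by 0.94 ± 0.13 (adjusted p = 8.3e-06) against 1.24 ± 0.13. Nrg3 stayed far below wild type, at 6.63, 6.76 and 6.73 in knockout cells of TN day 6 against 9.14, 9.27 and 9.23 in wild-type cells of that day. Auts2 was not called (0.07 ± 0.11, adjusted p = 0.67).

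Stress and metabolic genes fell in part. Of 23 p53 target and apoptosis genes 15 were lower and 1 higher in knockout cells (median -0.57), against 11 and 1 in wild type. Eda2r, a death receptor, had 7.64, 7.49 and 6.97 at TN day 6 and 9.83 and 10.28 at TN day 2 (-2.69 ± 0.24, adjusted p = 1.7e-08), and Gtse1, which is also a cell cycle gene, fell by 1.81 ± 0.15 (adjusted p = 6.5e-09). Perp, a membrane protein of adhesion and apoptosis, had 6.03, 6.0 and 5.92 in knockout cells of TN day 6 and 7.28 and 7.95 in those of TN day 2, against 5.58, 6.19 and 6.07 at TN day 6 and 5.12 and 6.12 at TN day 2 in wild type (-1.95 ± 0.33, adjusted p = 0.001). Hrk, a neuronal activator of apoptosis, was the 1 that rose (0.69 ± 0.12, adjusted p = 9.4e-05). Plk2 overlapped between the days (-0.18 ± 0.17, adjusted p = 0.46).

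Of 23 cholesterol and fatty acid synthesis genes 12 were lower and 1 higher (median -0.37), or 5 lower without knockout TN day 2 replicate 2. Scd1, a desaturase, had 7.45, 7.6 and 7.26 at TN day 6 and 9.59 and 10.16 at TN day 2 (-2.43 ± 0.25, adjusted p = 1.6e-07), against -1.83 ± 0.25 in wild type. Nsdhl, of the sterol pathway, fell by 1.08 ± 0.15 (adjusted p = 7.3e-06) and Msmo1, of the same pathway, fell by 1.01 ± 0.11 (adjusted p = 1.9e-07). Hmgcs1, which makes the precursor of mevalonate, was not called (0.12 ± 0.15, adjusted p = 0.58). Of 25 genes of ATF4 targets, serine synthesis and the endoplasmic reticulum stress response 3 were higher and 6 lower, or 2 lower without knockout TN day 2 replicate 2. Asns, asparagine synthetase, rose by 0.74 ± 0.13 (adjusted p = 7.6e-05), and Hsp90b1, a chaperone, fell by 0.61 ± 0.09 (adjusted p = 9.7e-06). Phgdh, the first enzyme of serine synthesis, fell by 0.53 ± 0.14 (adjusted p = 0.0041), and Psat1, in the next step, was not called (-0.34 ± 0.2, adjusted p = 0.19).

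Of 18 immediate early genes 4 were higher and 6 lower. Nr4a2, also a factor of dopamine neurons, had 8.23, 8.35 and 8.26 at TN day 6 and 7.06 and 7.03 at TN day 2 (1.24 ± 0.26, adjusted p = 0.00071), and Homer1, a postsynaptic scaffold, rose by 0.51 ± 0.09 (adjusted p = 7.7e-05). Fos fell by 0.78 ± 0.18 (adjusted p = 0.0013), and its wild-type change was 0.06 ± 0.18 (adjusted p = 0.85). The difference between genotypes was not called for Fos (-0.83 ± 0.25, adjusted p = 0.056). Nr4a3 fell by 1.09 ± 0.17 (adjusted p = 1.9e-05) in knockout cells and differed from wild type by -1.43 ± 0.24 (adjusted p = 0.00084). Jun was not called (-0.41 ± 0.22, adjusted p = 0.17). Of 31 genes of mitochondrial complexes I and III 4 were higher and 5 lower, with a median of -0.03, or 2 lower without knockout TN day 2 replicate 2 and 3 without TN day 6 replicate 3. These shares, 12.9% higher and 16.1% lower, compare with 22.1% and 12.8% of all genes. Uqcrh had 9.17, 9.19 and 9.1 at TN day 6 and 9.98 and 9.99 at TN day 2 (-0.83 ± 0.09, adjusted p = 3.7e-07), while Ndufb9 rose by 0.61 ± 0.08 (adjusted p = 5.8e-06) and Uqcrc1 by 0.58 ± 0.09 (adjusted p = 3.5e-05). Of 14 interferon-stimulated genes 1 was higher (2 without knockout TN day 6 replicate 1) and 2 were lower, among them Ifitm3, which restricts virus entry (-2.24 ± 0.26, adjusted p = 7.9e-07).

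Markers of other cell types the cultures could hold were examined as lists. Among all genes 22.1% were higher and 12.8% lower. Shares were 33.3% and 13.3% for astrocyte genes and 29.4% and 17.6% for choroid plexus and ciliated cell genes. Of 13 microglia genes 0 were called by limma, and 1 had an unadjusted p under 0.05, with a lower level. Their mean level was 5.42, 5.55 and 5.53 at TN day 6 and 5.46 and 5.38 at TN day 2, with Aif1 at 4.61, 4.82 and 5.09 at TN day 6 and 4.89 and 4.63 at TN day 2. Of 15 astrocyte genes 5 were higher and 2 lower, or 3 higher without knockout TN day 2 replicate 1. Gfap (4.97, 5.09 and 5.18 at TN day 6 and 4.64 and 4.72 at TN day 2) and Aqp4 (4.26, 4.31 and 4.51 at TN day 6 and 4.16 and 4.27 at TN day 2), which define mature astrocytes, were low on both days and not called. Aldoc, a glycolytic enzyme, rose by 1.85 ± 0.24 (adjusted p = 3.3e-06) and Slc1a2, a glutamate transporter, by 0.63 ± 0.11 (adjusted p = 6e-05). Slc1a3, the transporter shared with radial glia, overlapped between the days (0.12 ± 0.21, adjusted p = 0.71). Gja1, a gap junction protein, fell by 2.52 ± 0.22 (adjusted p = 1.5e-08) and Id3, an inhibitor of helix-loop-helix factors, fell by 2.47 ± 0.18 (adjusted p = 1.6e-09), against -3.83 ± 0.18 in wild type, a difference of 1.36 ± 0.25 (adjusted p = 0.0025). Fgfr3, a growth factor receptor that progenitors share, had 8.94, 9.08 and 8.77 in knockout cells of TN day 6 and 8.1 and 7.69 in those of TN day 2, against 7.16, 7.33 and 7.31 at TN day 6 and 8.8 and 8.12 at TN day 2 in wild type (2.22 ± 0.29, adjusted p = 6.3e-05).

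Of 14 oligodendrocyte lineage genes 3 were higher (21.4%) and 1 lower (7.1%), no more than the 22.1% and 12.8% of all genes. Cnp, a myelin enzyme, rose by 0.76 ± 0.14 (adjusted p = 0.00024), and Myrf, a factor of myelination that other tissues use too, fell by 1.86 ± 0.25 (adjusted p = 4.8e-06). Of 16 endothelial and mural genes 2 were higher and 3 lower, with 1 higher without knockout TN day 2 replicate 1 or TN day 6 replicate 2. These endothelial and mural shares, 12.5% higher and 18.8% lower, are not far from the 22.1% and 12.8% of all genes. Flt1, a receptor of vascular endothelial growth factor, had 8.38, 8.31 and 7.22 at TN day 6 and 6.77 and 6.61 at TN day 2 (1.28 ± 0.27, adjusted p = 0.00064). Podxl, a sialomucin of vessels and epithelia, fell by 1.99 ± 0.33 (adjusted p = 4.9e-05) and Pdgfrb, of mural cells, fell by 1.84 ± 0.43 (adjusted p = 0.0018). Pecam1, which defines endothelium, was at 5.49, 5.47 and 5.55 at TN day 6 and 5.09 and 5.09 at TN day 2 and was not called. Of 11 neural crest and Schwann cell genes 4 were higher and 5 lower, and the count of higher genes was 1 to 4 without single arrays. Snai2, a factor of migrating crest, had 5.36, 5.85 and 5.65 at TN day 6 and 8.05 and 9.2 at TN day 2 (-3.01 ± 0.42, adjusted p = 6.8e-06), and Pmp22, a membrane protein of Schwann cells, fell by 1.99 ± 0.27 (adjusted p = 6e-06). Tfap2a had 7.36, 7.4 and 7.15 in knockout cells of TN day 6 and 9.0 and 8.93 in those of TN day 2, against 9.23, 9.12 and 9.11 at TN day 6 and 9.05 and 8.98 at TN day 2 in wild type (-1.8 ± 0.26, adjusted p = 0.00029).

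Of 17 choroid plexus and ciliated cell genes 5 were higher and 3 lower, or 2 higher and 1 lower without knockout TN day 2 replicate 2, and 3 higher without TN day 2 replicate 1 or TN day 6 replicate 2. Foxj1, which drives motile cilia, had 6.12, 6.13 and 5.91 at TN day 6 and 5.62 and 5.59 at TN day 2, a small rise (0.45 ± 0.1, adjusted p = 0.0012). Of 28 pluripotency genes 1 was higher and 1 lower, or 2 lower without knockout TN day 2 replicate 2 or TN day 6 replicate 1. Pou5f1 was at 4.29, 4.46 and 4.48 at TN day 6 and 4.15 and 4.59 at TN day 2, against a mean of 10.91 ± 0.61 in knockout ES cells (SD, n = 2), and Nanog at 5.61, 5.96 and 5.66 at TN day 6 and 5.83 and 5.73 at TN day 2, against 11.00 ± 0.65. Esrrb, a nuclear receptor of the ES cell network, had 7.27, 7.11 and 7.02 in knockout cells of TN day 6 and 6.08 and 5.92 in those of TN day 2. Wild-type Esrrb had 6.1, 6.06 and 5.96 at TN day 6 and 6.32 and 6.71 at TN day 2, and the difference was 1.61 ± 0.33 (adjusted p = 0.0058).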

How the data were processed

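RNA was hybridised to Affymetrix whole-transcript arrays, 28 in 12 groups. The deposited log2 values (35556 probe sets) were used unchanged; the submitters' processing notes name oligo 1.14.0, while summarization, log base and genome build are not given in those sources. Values of 1.963 to 13.99 were read as log2. Of the probe sets, 21789 carried 1 gene symbol, 1621 several and 12146 none. Where a gene had several (999 genes) the probe set with the highest mean was kept, which left 19938 genes; 19856 (99.6%) had a RefSeq span. limma 3.58.1 in R 4.3.3 fitted 12 group means to all arrays, with contrasts for the day in each genotype and for their difference, and BH adjustment over all genes. The SE thus pools the spread of all groups, so a gene that varied in another group can go uncalled. The model was tested on simulated data. Symbols of the form Gm or LOC plus digits, or ending in Rik, were left out of the rankings of rises, falls and differences. The genes named were drawn from the 15 largest non-overlapping rises and falls, the 10 largest differences each way, and from each of 37 lists up to 4 called genes each way, 2 bright uncalled genes and 3 called differences, plus markers. That rule gave 343 genes, and the text names 221. Members and lists were chosen with earlier results of these data known. Alternatives were quantile normalization, median centring, a filter on dim genes, the mean of probe sets, only the arrays compared, array weights, the replicate number as a block, and leaving out each array. For arrays, their number limits the precision.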

Additional observations from a re-analysis of the deposited data

Results flagged for a closer look

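The change between TN day 6 and TN day 2 differed between knockout and wild-type cells in 540 genes with a higher and 417 with a lower knockout change, by the interaction test in limma at an adjusted p under 0.05. Each value below is the knockout change minus the wild-type change on the log2 scale. Only genes in the text are listed, and each passed that threshold. A higher knockout change was found for Sfrp2 (4.43), Gpr50 (3.75), Pax6 (3.58), Sox21 (3.01), Chrna5 (2.96) and Wnt7a (2.92). It was also higher for Wnt7b (2.67), Moxd1 (2.65), Dbx1 (2.65), Ednrb (2.55), Cbln2 (2.43) and Fgfr3 (2.22). Higher values were seen in Gata3 (2.09), Sox2 (2.06), Dll3 (1.89), Lama1 (1.85), Dll1 (1.77) and Hes5 (1.72). The knockout change exceeded that of wild type in Neurod4 (1.63), Esrrb (1.61), Dlx1 (1.60), Slc6a11 (1.57), Sv2b (1.51) and Scg2 (1.48). Among smaller values were Id3 (1.36), Lhx4 (1.35), Cenpf (1.34), Top2a (1.32), Unc5a (1.27) and Prph (1.27). Others were Kcnd3 (1.25), Ngfr (1.24), Epha5 (1.22), Lmo3 (1.18), Nefm (1.17) and Prc1 (1.17). Further genes were Jag1 (1.15), Kcnip1 (1.02), Nefl (1.02) and Nrxn2 (0.58).

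A lower knockout change was found for Lpl (-5.25), Kdr (-3.63), Col14a1 (-3.39), Stk26 (-3.28), Zim1 (-2.96) and Tac1 (-2.80). It was also lower for Wnt1 (-2.75), Pakap (-2.71), Penk (-2.70), Inpp4b (-2.52), Lef1 (-2.43) and Podxl (-2.17). Lower values were seen in Tagln (-2.14), Adamts1 (-2.13), Mybpc1 (-2.07), Perp (-1.95), Fn1 (-1.83) and Tfap2a (-1.80). The knockout change was below that of wild type in Gria3 (-1.78), Myrf (-1.75), Ptprd (-1.61), Gabra3 (-1.60), Kcnq5 (-1.56) and Nr4a3 (-1.43). Among smaller differences were Cntnap5a (-1.39), Tenm3 (-1.36), Gabra5 (-1.28), Pard3 (-1.15), Sgcz (-1.14) and Exoc4 (-1.13). Others on this side were Grik2 (-1.10), Cacna2d1 (-0.95), Prim1 (-0.84), Msmo1 (-0.70) and Adgrl2 (-0.63).

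Of these differences, 19 were not called under at least 1 alternative. Without wild-type TN day 2 replicate 1 the call ended for Adamts1 (0.155), Cacna2d1 (0.0983), Cenpf (0.336), Fn1 (0.0825), Gabra5 (0.15), Gria3 (0.122), Grik2 (0.148), Myrf (0.0697), Nrxn2 (0.0637), Podxl (0.0734), Prc1 (0.241), Ptprd (0.0785), Tagln (0.398), Top2a (0.0562) and Zim1 (0.162), each with its adjusted p from limma in brackets. Without knockout TN day 2 replicate 2 it ended for Adamts1 (0.141), Cacna2d1 (0.244), Cenpf (0.165), Epha5 (0.111), Fn1 (0.0631), Gabra5 (0.215), Gria3 (0.0845), Lama1 (0.0584), Msmo1 (0.0588), Myrf (0.0679), Nefm (0.051), Nrxn2 (0.114), Podxl (0.0883), Prc1 (0.111), Ptprd (0.0514), Tagln (0.252) and Zim1 (0.0951). Without wild-type TN day 2 replicate 1 the value for Tagln was -1.04 and that for Adamts1 -1.33. Cacna2d1, Cenpf, Gabra5, Grik2, Prc1 and Tagln also lost their calls without at least 1 other array.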

How the results depend on the processing

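Of the 180 knockout changes called among the genes in the text, 169 were called under every alternative, and of the 75 called differences between genotypes 56 were. Among all 343 genes that the naming rule gave, 201 of 254 knockout changes and 57 of 102 differences were called under every alternative. The genes left out of the text thus lost their calls more often. No called value changed direction. Leaving out 1 array at a time gave 3141 to 4182 genes higher and 1695 to 2391 lower in knockout cells, and 192 to 878 higher and 160 to 547 lower for the difference between genotypes. The lowest counts came without knockout TN day 2 replicate 2 or wild-type TN day 2 replicate 1, each of which leaves 1 array in its group that is assumed to vary like the others. Array weights gave 910 higher and 645 lower differences. The replicate number as a block gave 3532 higher and 2072 lower changes in knockout cells and 324 higher and 249 lower differences. It left 4 of the very long genes with a lower difference. No label says that numbers pair arrays, only 2 are shared per genotype, and deviations of same-numbered arrays correlated at -0.0817 and 0.101 in knockout and -0.0238 and -0.13 in wild-type cells. Deviations of 2 arrays from their own mean are mirror images. These correlations therefore cannot tell whether the numbers pair arrays. Median centring gave 389 higher and 592 lower differences, and moved the median difference of all genes to -0.04, against 0.03 as reported. The cause of these shifts was not tested. With 2 arrays at TN day 2, the spread of that stage is poorly known.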
